A study of Mus musculus with 10 samples.

Results

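The genes *Cpne9*, *Rassf4*, *Crip2*, *Fhl3*, *Mreg* and *Prodh* were followed in RNA-seq data of interscapular brown adipose tissue (iBAT). They are 6 of the 27267 listed genes, and all 6 passed the filter on low values that left 13714 tested genes. The 6 genes were chosen by measured values, since each had a higher mean in the libraries labelled *Mgp*-KO than in the wild-type (WT) libraries. Their genotype difference is therefore given as a description, and the number of them that a genotype fit calls is given later only to set it beside all tested genes. Tests are read only for measures other than the pooled genotype difference. These measures come from the same values, so they are not fully free of the choice.

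The tissue came from 4-week-old C57BL/6 mice labelled male, with 5 WT libraries and 5 libraries labelled *Mgp*-KO, a global deletion of matrix Gla protein that is present in every cell type of the animal. No other allele or agent is named, and all mice were kept on standard chow. The values are normalized counts, which are reads counted on a gene divided by the size factor of the library. Replicates 1 to 3 of both genotypes had 19616366 to 22252260 reads on genes, of which mitochondrial rRNA took 0.771% to 1.72%, and replicates 4 and 5 had 9253793 to 13281873 reads with 6.4996% to 16.7%. These 2 library sets were therefore compared throughout. The reads of *Mgp* go against 2 labels. The libraries labelled *Mgp*-KO 1 to 3 had 0, 1 and 1 reads of *Mgp*, whereas those labelled *Mgp*-KO 4 and 5 had 309 and 282 reads, or 500 and 331 normalized counts, beside 466 to 1146 in the WT libraries. WT 2 also went against its male label, with 5094 normalized counts of *Xist* against at most 44.0 in the other 9 libraries. The brown adipocyte markers were present in every library, with a sum over 12 genes of 94593 to 189986 normalized counts in WT and 39384 to 90379 in the libraries labelled *Mgp*-KO.

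Brown adipocytes burn lipid in their mitochondria to produce heat, and matrix Gla protein inhibits the bone morphogenetic proteins that steer their differentiation. The 6 genes act at different places in a cell. *Cpne9* encodes a copine, a protein that binds membrane phospholipid when calcium rises, and *Rassf4* encodes an adaptor with a Ras-association domain whose family is linked to the Hippo kinases. *Crip2* and *Fhl3* encode small proteins made of LIM domains, which are zinc-binding folds that join proteins in the cytoskeleton and the nucleus. *Mreg* encodes melanoregulin, known for the transport of melanosomes and other lysosome-related organelles, and *Prodh* encodes proline dehydrogenase, the mitochondrial enzyme that begins proline breakdown.

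The promoters of the 6 genes were read from RefSeq (GRCm38.p6) to see what the genes share that their choice did not use. The 150 bases before the transcription start are shown for 4 of them as examples, 3 with repeated GC boxes and *Prodh* with none. *Crip2*, not shown, also holds repeated GC boxes, and the GC box of *Mreg*, not shown either, lies after the start. Each of the 4 is printed 5′ to 3′ on the strand of the gene, and capitals mark GGGCGG, the GC box, or its complement. That of *Cpne9* lies at chr6:113282157-113282306 on the plus strand, that of *Rassf4* at chr6:116673837-116673986 on the minus strand, that of *Fhl3* at chr4:124700549-124700698 on the plus strand and that of *Prodh* at chr16:18089191-18089340 on the minus strand. The window of *Prodh* lies inside its gene span from GENCODE given below, and that of *Rassf4* partly so. For *Prodh*, the bases before the GENCODE start were not searched.
Cpne9: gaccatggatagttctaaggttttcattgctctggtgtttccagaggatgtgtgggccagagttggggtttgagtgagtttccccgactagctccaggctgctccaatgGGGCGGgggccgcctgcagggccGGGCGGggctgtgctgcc
Rassf4: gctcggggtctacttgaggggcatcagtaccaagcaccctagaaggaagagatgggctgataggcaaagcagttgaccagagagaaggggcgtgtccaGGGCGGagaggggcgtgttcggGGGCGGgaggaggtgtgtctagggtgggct
Fhl3: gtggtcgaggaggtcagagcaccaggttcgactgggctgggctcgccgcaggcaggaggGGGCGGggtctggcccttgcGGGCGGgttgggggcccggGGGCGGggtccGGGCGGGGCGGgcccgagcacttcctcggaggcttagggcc
Prodh: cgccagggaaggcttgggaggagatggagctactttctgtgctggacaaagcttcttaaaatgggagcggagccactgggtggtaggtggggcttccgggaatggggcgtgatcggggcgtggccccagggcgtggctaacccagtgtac

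Over the whole window from 250 bases before to 50 bases after the start, a GC box was found on either strand in 5 of the 6 genes, all but *Prodh*. The table holds 2 promoters each for *Crip2* and *Mreg*, so 8 promoters were searched. GC boxes are common in promoters of active genes, and 68.3% of the 10060 tested genes with a promoter in the table held 1, against 35.7% of all 32851 promoters. The CCAAT box, written CCAAT, was found in 4 of the 6 genes and in 42.7% of tested genes (37.4% of all promoters), and CANNTG in 4 and in 67.5% (72.3%). GGCGCC was found in 2 of the 6 genes and in 24.2% of tested genes (11.9%). The TATA box, searched as TATAAA, was in none of the 8 windows and in 8.94% of tested genes (13.6%). The E-box CACGTG, a case of the wider E-box, was in none of them and in 11.7% (7.15%). The AP-1 motif TGANTCA was in none of them either and in 6.18% (7.81%). These matches describe the letters in the windows and not binding.

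The signalling and membrane genes are described here before the others. *Cpne9*, which spans chr6:113282307-113305627 on the plus strand, was at 12.2, 12.7, 17.6, 5.86 and 1.73 normalized counts in WT 1 to 5. The libraries labelled *Mgp*-KO 1 to 5 had 97.2, 145, 128, 12.95 and 42.2. The low values rest on few reads, namely 4 and 1 in WT 4 and 5 and 8 in the library labelled *Mgp*-KO 4, where a floor of 3 reads corresponds to 4.40, 5.19 and 4.86 normalized counts. The library labelled *Mgp*-KO 4 lay below WT 3, so the groups overlapped over all libraries, but they did not overlap within either library set. The mean was 10.03 ± 6.25 in WT and 85.2 ± 56.3 (SD, n = 5), an 8.49-fold difference. Folds here are ratios of mean normalized counts, whereas the log2 fold changes are differences of mean log2 values, so both can differ. The log2 fold change of *Cpne9* was 2.82 (SE 0.70), which ranked 5th from the highest of 13714 genes. Within replicates 4 and 5 the difference was 7.26-fold, from 44 reads against 5, and the log2 fold change there ranked 104th.

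*Rassf4*, on the minus strand at chr6:116633008-116673952, was at 289, 231, 267, 321 and 142 normalized counts in WT 1 to 5. The libraries labelled *Mgp*-KO 1 to 5 had 1314, 2164, 1137, 560 and 536. Every library labelled *Mgp*-KO lay above every WT library, and replicates 1 to 3 stood higher than 4 and 5 on the *Mgp*-KO side, whereas WT 4 was the highest WT library. The means were 249.9 ± 68.8 and 1142 ± 667 (SD, n = 5), a 4.57-fold difference, with 5.87-fold within replicates 1 to 3 and 2.37-fold within 4 and 5. *Cpne9* and *Rassf4* lie on the same chromosome as *Mgp*, 23.6 and 20.2 Mb from it.

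Both LIM genes were higher in the libraries labelled *Mgp*-KO within each library set, without overlap. *Crip2*, at chr12:113140236-113145506 on the plus strand, was at 1652, 1268, 1433, 998 and 644 normalized counts in WT 1 to 5. Its values were 3291, 3681, 3227, 1756 and 2422 in libraries 1 to 5 labelled *Mgp*-KO. Its groups did not overlap, and its fold difference was 2.34 within replicates 1 to 3 and 2.54 within 4 and 5. *Fhl3*, at chr4:124700701-124708611 on the plus strand, was at 136, 109, 198, 46.9 and 44.99 in WT 1 to 5. In the libraries labelled *Mgp*-KO it was at 487, 1032, 769, 112 and 169. Those of replicates 4 and 5 lay below WT 3, so the groups of *Fhl3* overlapped over all libraries and did not overlap within a set. The means were 1199 ± 392 and 2876 ± 775 for *Crip2* (2.40-fold) and 107 ± 64.6 and 514 ± 392 for *Fhl3* (4.79-fold; SD, n = 5).

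For the genes of organelle transport and proline breakdown, the groups overlapped within replicates 4 and 5 and did not within replicates 1 to 3. *Mreg*, at chr1:72159442-72212307 on the minus strand, was at 137, 99.6, 139, 126 and 90.0 normalized counts in WT 1 to 5. It was at 596, 516, 484, 29.1 and 218 in libraries 1 to 5 labelled *Mgp*-KO, so that the lowest of all 10 libraries was the one labelled *Mgp*-KO 4. *Prodh*, at chr16:18060357-18090203 on the minus strand, was at 358, 315, 345, 835 and 386 in WT 1 to 5. Libraries 1 to 5 labelled *Mgp*-KO had 1872, 3932, 1733, 400 and 817. WT 4 stood far above the other WT libraries and above both libraries labelled *Mgp*-KO of its set. The fold difference within replicates 1 to 3 was 4.26 for *Mreg* and 7.40 for *Prodh*, and within replicates 4 and 5 it was 1.14 and 0.996. The 2 libraries of a group are far apart here, and on the log2 scale *Mreg* was on average lower in those labelled *Mgp*-KO of this set, as given further on. Over all libraries the means were 118 ± 22.2 and 369 ± 237 for *Mreg* (3.12-fold) and 448 ± 218 and 1751 ± 1366 for *Prodh* (3.91-fold; SD, n = 5).

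**Figure D1:**
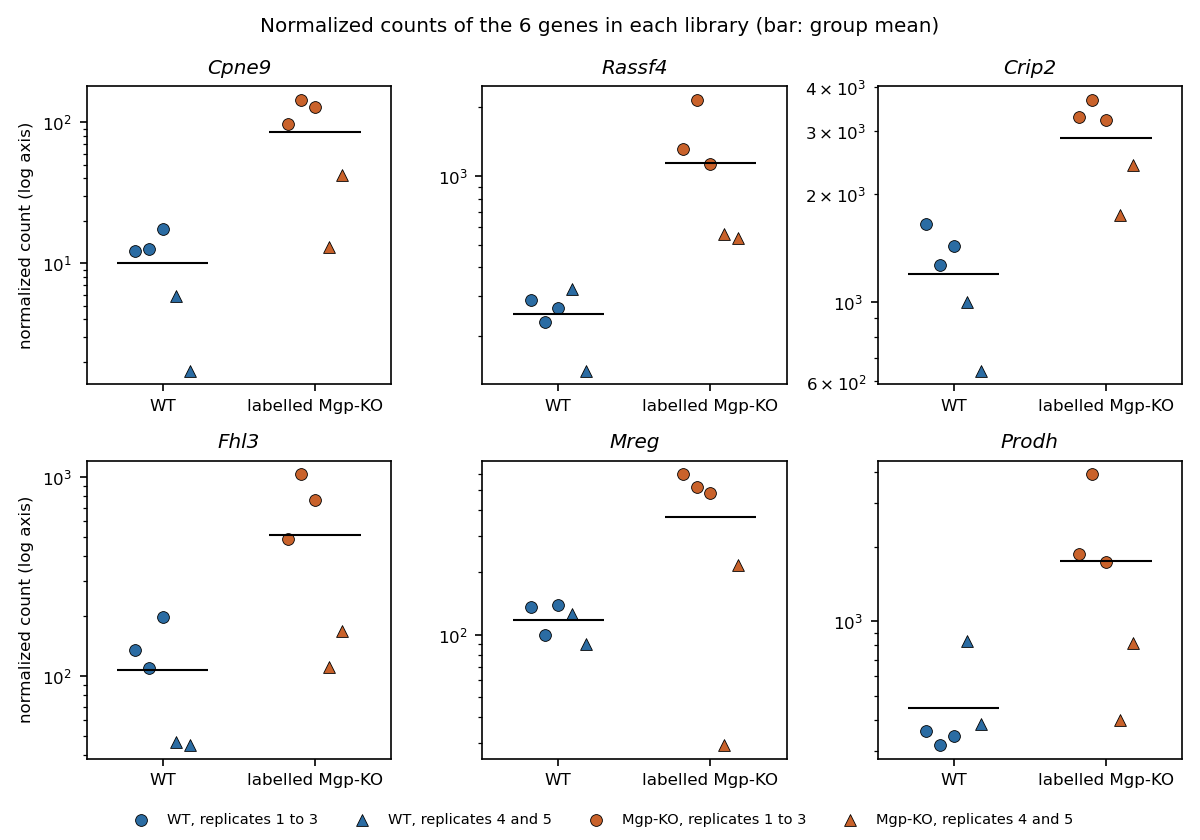
Normalized counts of the 6 genes in each library on a log axis, with circles for replicates 1 to 3, triangles for replicates 4 and 5 and a bar at the mean of each group (n = 5). Circles of the 2 groups are apart in all 6 panels, and the triangles overlap for *Mreg* and *Prodh*.

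Divided by the length of the gene's exons, the means over all libraries had the same order in both groups. In WT, *Crip2* had 571 ± 187 normalized counts per kb, followed by *Fhl3* (63.7 ± 38.4), *Prodh* (57.5 ± 28.0), *Mreg* (51.8 ± 9.73), *Rassf4* (27.1 ± 7.47) and *Cpne9* (1.27 ± 0.79). In the libraries labelled *Mgp*-KO the levels per kb were 1370 ± 369, 305 ± 233, 225 ± 175, 161 ± 104, 124 ± 72.4 and 10.8 ± 7.15 in the same order (SD, n = 5). *Crip2* was the most abundant and *Cpne9* the least in both groups, while the gaps from *Fhl3* to *Prodh* and from *Prodh* to *Mreg* were smaller than the SDs of the genes on either side. Within each library set the order of the other genes differed between the groups. In replicates 1 to 3, *Mreg* stood above *Prodh* in WT (54.8 and 43.5) and below it in those labelled *Mgp*-KO (233 and 322). In replicates 4 and 5, *Fhl3* stood below *Mreg* in WT (27.3 and 47.3) and above it in those labelled *Mgp*-KO (83.3 and 54.1). In bulk tissue, fewer cells of a type and less RNA per cell cannot be told apart.

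How far the 2 library sets gave the same genotype difference was asked next. In log2 terms it was 3.04 (SE 0.49) within replicates 1 to 3 and 2.504 (SE 0.60) within 4 and 5 for *Cpne9*, and 2.498 (SE 0.31) and 1.36 (SE 0.38) for *Rassf4*. It was 1.23 (SE 0.21) and 1.36 (SE 0.26) for *Crip2*, and 2.34 (SE 0.31) and 1.56 (SE 0.38) for *Fhl3*. For *Mreg* it was 2.09 (SE 0.56) and -0.40 (SE 0.68), and for *Prodh* 2.78 (SE 0.39) and 0.01 (SE 0.47). The log2 fold change was thus above 1 for all 6 genes within replicates 1 to 3, beside 3.65% of all tested genes. Within replicates 4 and 5 it was above 1 for all but *Mreg* and *Prodh*, beside 8.94% of all tested genes. The median of the 6 was 1.85 over all libraries, 2.42 within replicates 1 to 3 and 1.36 within 4 and 5, beside medians of 0.03, 0.02 and 0.02 over all tested genes. No label marks libraries of the same number as pairs. Between such libraries, *Mreg* and *Prodh* were higher in that labelled *Mgp*-KO in 4 of 5 comparisons. The other 4 genes were higher in 5 of 5. The exception was replicate 4, with ratios of 0.231 for *Mreg* and 0.479 for *Prodh*. The choice of the 6 genes favours higher values, and the share of all tested genes was not computed. The library labelled *Mgp*-KO 4 stood apart in other measures too. Its mitochondrial rRNA was 16.7% of reads against at most 8.57% in the other 9 libraries, and its 7 erythroid markers summed to 101722 normalized counts against 3012 to 26441. Its general adipocyte markers had the lowest sum, 213248, beside 242788 or more in the others. The 10 immediate early genes respond to acute stimuli. Their sum was 15107 to 18255 in the libraries labelled *Mgp*-KO 1 to 3 against 7128 to 9798 in WT 1 to 3, and 9847 and 2746 in those labelled *Mgp*-KO 4 and 5 against 8044 and 7842 in WT 4 and 5; limma called 0 of these 10 genes, with log2 fold changes of both signs. The sums in WT 4 and 5 lie inside the range of WT 1 to 3. The part of these measures in the values of *Mreg* and *Prodh* was not tested.

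**Figure D2:**
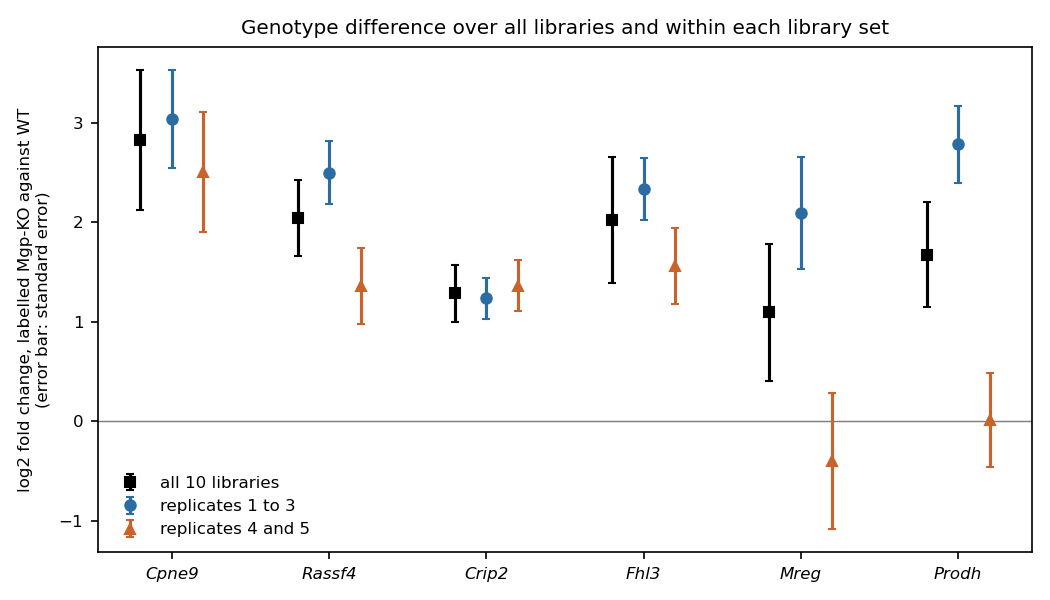
Log2 fold change of the 6 genes between the libraries labelled *Mgp*-KO and WT, with its standard error, over all 10 libraries (squares), within replicates 1 to 3 (circles) and within replicates 4 and 5 (triangles). The triangles of *Mreg* and *Prodh* lie at -0.40 and 0.01, and those of the other 4 genes above 1.

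Whether the genotype difference changed with the set was tested by an interaction term in limma. It was -2.77 (SE 0.61) for *Prodh* and -2.496 (SE 0.88) for *Mreg*, with unadjusted p-values of 0.00105 and 0.0178, and each had an adjusted p of 0.455. The adjusted p was 0.476 for *Rassf4* (-1.14, SE 0.49), 0.549 for *Fhl3* (-0.78, SE 0.49), 0.793 for *Cpne9* (-0.53, SE 0.78) and 0.888 for *Crip2* (0.13, SE 0.33). None of the 6 genes was called by limma, beside 0.00729% of all tested genes, a share that is *Mgp* alone. EdgeR called 0 of the 6 and 1 of all tested genes, and DESeq2 called 1 (*Prodh*) and 63 of all tested genes. At an unadjusted p under 0.05 there were 3 of the 6 genes and 1419 of all 13714. With DESeq2 the interaction of *Prodh* was -2.88 (adjusted p = 0.00522). The 2 libraries labelled *Mgp*-KO that go against their label gave different values when left out. Without *Mgp*-KO 4 by its label, the interaction was -1.06 for *Mreg* (adjusted p = 0.567) and -2.26 for *Prodh* (adjusted p = 0.531) in limma. Without *Mgp*-KO 5 by its label, it was -3.93 for *Mreg* (adjusted p = 0.00376) and -3.29 for *Prodh* (adjusted p = 0.0183). Either fit leaves 1 such library in its set, which is assumed to vary like the libraries of the other groups.

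The level of the genes in the 2 sets, with genotype held equal, gave a clearer difference. Limma called 4 of the 6 genes, all lower in replicates 4 and 5, against 38.2% of all tested genes called in either direction. The log2 difference of replicates 4 and 5 from 1 to 3 was -2.01 for *Fhl3* (SE 0.26, adjusted p = 2.77e-04), -2.06 for *Cpne9* (SE 0.39, adjusted p = 0.00204) and -0.78 for *Crip2* (SE 0.16, adjusted p = 0.00356). These 3 calls held with each library left out in turn. In the WT libraries alone, *Fhl3* was at 109 to 198 in WT 1 to 3 and at 44.99 and 46.9 in WT 4 and 5, and *Cpne9* and *Crip2* were likewise lower in WT 4 and 5 without overlap. *Rassf4* was called at -0.86 (SE 0.29, adjusted p = 0.0372), but the call was lost without any of the libraries other than WT 2 and WT 4 (adjusted p from 0.0512 to 0.105) and with edgeR (0.0577). Its WT means were 262 and 231 in the 2 sets, so this difference lay mostly in the libraries labelled *Mgp*-KO, whose replicates 4 and 5 hold *Mgp* reads. *Mreg* (-1.46, SE 0.56, adjusted p = 0.0591) and *Prodh* (-0.64, SE 0.51, adjusted p = 0.336) were not called, and the WT mean of *Prodh* was 339 in replicates 1 to 3 and 611 in 4 and 5. *Mreg* passed without WT 2 (0.0498) or WT 4 (0.0388). Depth and the share of mitochondrial rRNA differ between the sets, and their part in these values was not tested.

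Because the genotype contrast chose the 6 genes, the counts that follow only describe them. Groups that did not overlap, with the libraries labelled *Mgp*-KO higher, were found for 2 of the 6 genes over all libraries (1.39% of all tested genes), for 6 within replicates 1 to 3 (15.5%) and for 4 within replicates 4 and 5 (20.3%). Limma over all 10 libraries called 0 of the 6 genes and 0.0656% of all tested genes, and 5 of the 6 had an unadjusted p under 0.05, as had 1421 of all 13714. EdgeR called 0 of the 6 and 3 of all tested genes, and DESeq2 called 5, all but *Mreg*, and 371 of all tested genes. With a term for the library set, limma called 4, namely *Cpne9*, *Rassf4*, *Crip2* and *Fhl3*, beside 2.36% of all tested genes. Leaving out the libraries labelled *Mgp*-KO 4 and 5 together raised the log2 fold changes to 3.75 for *Cpne9*, 2.61 for *Rassf4*, 1.57 for *Crip2*, 2.98 for *Fhl3*, 2.18 for *Mreg* and 2.48 for *Prodh*. Without WT 2 they were 2.97, 2.02, 1.32, 2.09, 1.04 and 1.57 in the same order. *Mreg* moved the most when a library was left out, from 1.09 to 1.86 without the library labelled *Mgp*-KO 4.

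The other genes of the same families and pathways were then examined, 69 in number, of which 55 were tested. Limma called 0 of them, 7 had an unadjusted p under 0.05 beside 1421 of all tested genes, edgeR called 0 and DESeq2 1. Their median log2 fold change was -0.02, and 26 of 55 were higher in the libraries labelled *Mgp*-KO. With the library set in the model 2 genes passed, a share of 3.64% that is near the 2.36% of all tested genes, and both fell. These were *Sav1*, the scaffold of the Hippo kinases (log2 fold change -0.60, adjusted p = 0.0343), and *Pepd*, the peptidase that frees proline from dipeptides (-0.95, adjusted p = 0.0208). Without the term their adjusted p-values in limma were 0.329 and 0.0747.

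Among the copines, *Cpne7* had 9.08 ± 5.32 normalized counts in WT and 29.2 ± 9.73 in the libraries labelled *Mgp*-KO (log2 fold change 1.95, SE 0.70, adjusted p = 0.332), and *Cpne8* had 70.7 ± 12.9 and 125.9 ± 93.8. *Rassf7*, another gene with a Ras-association domain, had 21.3 ± 12.1 and 60.7 ± 26.7 (1.72, SE 0.66, adjusted p = 0.376). Neither passed the test. Of the LIM-only genes, *Lmo2*, a partner of transcription factors in blood and vessels, was at 178 ± 72.0 and 294 ± 186, and *Crip1*, a relative and neighbour of *Crip2*, at 238 ± 45.01 and 346 ± 241. In organelle transport, *Hps5* was at 428 ± 22.8 and 334 ± 62.3 and *Rab27a*, a small GTPase of secretory organelles, at 39.1 ± 12.9 and 81.6 ± 44.0. *Aldh4a1*, the mitochondrial enzyme that acts after *Prodh* in proline breakdown, was at 1934 ± 429 and 1393 ± 415 (log2 fold change -0.49, adjusted p = 0.475; SD, n = 5 throughout). Limma called neither of these 2 enzymes, and the sign of *Prodh* was fixed by its choice.

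**Figure D3:**
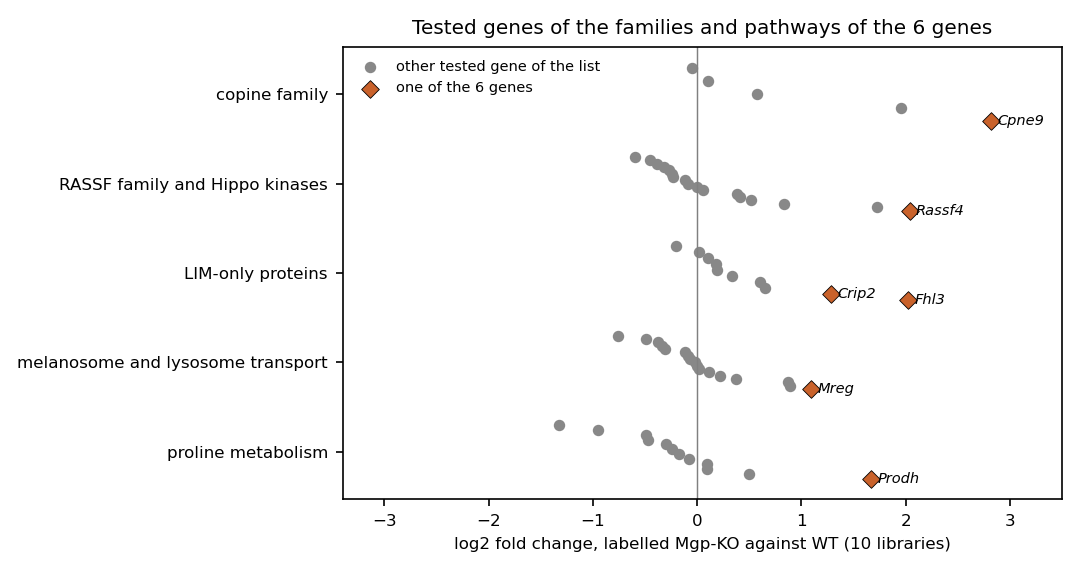
Log2 fold change over all 10 libraries of every tested gene in the 5 families or pathways, with grey points for the 55 other genes and diamonds for the 6 chosen genes. The 6 diamonds lie at the right end of their rows, and the grey points have a median of -0.02. The choice of the 6 genes on this contrast favours positive values and does not fix this position.

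The nearest listed genes on each side of the 6 genes, and those that overlap them, were 14 in number, of which 10 were tested and 6 of these were higher in the libraries labelled *Mgp*-KO. Their log2 fold changes ran from -2.003 to 1.05 with a median of 0.13. *Mtmr14*, a phosphoinositide phosphatase 0.915 kb from *Cpne9* on the same strand, was at 880 ± 389 in WT and 2091 ± 1282 in the libraries labelled *Mgp*-KO (1.05, SE 0.59, adjusted p = 0.583). *Slc25a1*, the mitochondrial citrate carrier 132 kb from *Prodh*, was the 1 neighbour called, beside 0.0656% of all tested genes. It fell from 8898 ± 4058 to 2056 ± 313 (-2.003, SE 0.30, adjusted p = 0.0471), a direction opposite to that of *Prodh*. No gene at all was called without WT 2, WT 3, WT 5 or the library labelled *Mgp*-KO 1 or 3, so this call was lost there, and with a term for the library set its adjusted p was 0.0121. *Dgcr6*, which overlaps *Prodh* on the opposite strand, had 859 ± 246 and 867 ± 180 normalized counts (0.03, SE 0.21), and *Gm43935*, opposite to *Cpne9*, 20.2 ± 9.79 and 24.1 ± 11.5 (SD, n = 5). The strand setting of the counting is not given in the sources used here, so reads of these overlapping pairs may be shared.

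To ask with which cells the 6 genes vary, each was set against marker lists of 11 cell types after the mean of each genotype and set had been removed from every library. Of the 66 relations over 10 libraries, 0 had an adjusted p under 0.05 in the exact permutation test within genotype and set, whose smallest p is 0.00694. At that p 1 relation alone would have an adjusted p of 0.458, so the threshold was nearly out of reach and 0 calls say little. The 4 that follow had an unadjusted p under 0.05. The deviations of *Prodh* ran against those of the lymphocyte markers (Pearson r = -0.94, exact permutation p = 0.0139; Spearman rho = -0.95, p = 0.0208) and of the brown adipocyte markers (r = -0.84, p = 0.0278; rho = -0.82, p = 0.0764), with r = -0.87 and -0.83 without the 2 libraries farthest from the median. *Rassf4* (r = -0.83, exact permutation p = 0.0417; rho = -0.77, p = 0.104; r = -0.63 without 2 libraries) and *Crip2* (r = -0.71, p = 0.0486; rho = -0.81, p = 0.0208; r = -0.69) were also lower where lymphocyte markers were higher. These values depend on the centring, as with genotype means alone removed r was -0.53 for *Prodh* with the lymphocyte and -0.46 with the brown adipocyte markers, -0.43 for *Rassf4* and -0.18 for *Crip2*. With z scores of the markers, *Prodh* had r = -0.39 with the brown adipocyte list. The smallest adjusted p was 0.535 for r and 0.6875 for rho. The 4 tested genes of the lymphocyte list summed to 27.8 to 103.6 normalized counts per library, a low level.

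Markers of skeletal muscle stood apart in 2 libraries. Their sum over 15 genes was 48494 in the library labelled *Mgp*-KO 2 and 46424 in that labelled *Mgp*-KO 5, beside 572 to 1431 in the other 3 and 675 to 8429 in WT. The first of these was also the highest library for *Cpne9*, *Rassf4*, *Crip2*, *Fhl3* and *Prodh*. In the second, the genes other than *Rassf4* lay above the library labelled *Mgp*-KO 4 and below those labelled *Mgp*-KO 1 to 3. *Rassf4* was at 536 there, its lowest value in a library labelled *Mgp*-KO. The deviations of *Fhl3* had r = 0.85 with this list (exact permutation p = 0.104; rho = 0.75, p = 0.125; r = 0.68 without 2 libraries; -0.11 with genotype means alone removed), the highest of the 6 genes, and *Fhl3* is known from muscle. In the libraries labelled *Mgp*-KO 1 and 3, where the muscle markers were at 572 and 613, *Fhl3* was at 487 and 769, above all WT libraries. Without the library labelled *Mgp*-KO 2 the log2 fold change of *Fhl3* was 1.66 and that of *Prodh* 1.28. *Mreg* had r = 0.92 with the general adipocyte markers (exact permutation p = 0.146; rho = 0.71, p = 0.139), which was 0.46 without the 2 farthest libraries and so rests on them. Over all libraries, 12 of 12 blood endothelial markers had a positive log2 fold change (median log2 fold change 0.46; 0 of 12 called by limma), with sums of 21849 to 27158 in 4 of them and 54991 in that labelled *Mgp*-KO 4 against 17580 to 29530 in WT. The median was 0.24 within replicates 1 to 3, where *Tek*, *Emcn* and *Vwf* were lower, and 0.89 within replicates 4 and 5, and the r of the 6 genes with this list ran from -0.66 to 0.39. Of the 12 brown adipocyte markers 11 were lower (median log2 fold change -0.47; 0 called by limma and 4 with a term for the library set, *Ucp1*, *Dio2*, *Elovl3* and *Adrb3*, all lower). The adipose progenitor list had 4 of 13 higher (median -0.46; 0 called). Its sums were 12894 to 24882 in the libraries labelled *Mgp*-KO 1 to 3 against 26845 to 52041 in WT 1 to 3, with overlap in replicates 4 and 5. Schwann cell sums were 1290 to 1430 against 2087 to 3106 in replicates 1 to 3. In replicates 4 and 5 they were 3525 to 3707 against 2689 to 3162. The part of these cell types in the levels of the 6 genes was not tested. *Mreg* is known from pigment cells, and the melanocyte markers summed to 7.15 to 12.0 normalized counts in WT 1 to 3, to 12.2 to 16.6 in the libraries labelled *Mgp*-KO 1 to 3 and to at most 10.3 in replicates 4 and 5, and 0 of them passed the filter on low values.

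**Figure D4:**
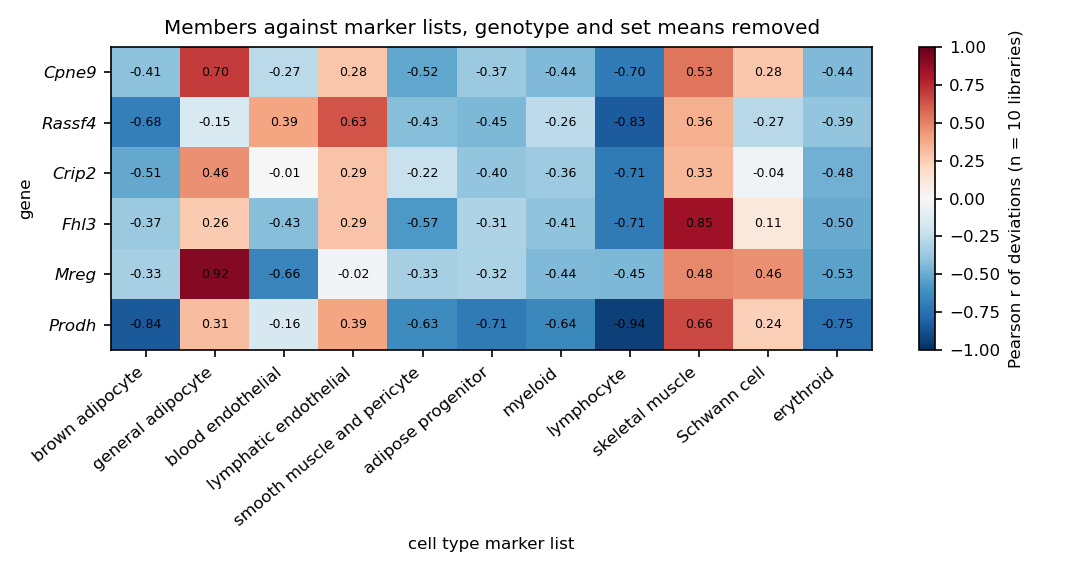
Pearson r between the deviations of each gene and those of the mean of each marker list over 10 libraries, with genotype and set means removed, from blue (-1) to red (1). The lymphocyte column is negative for all 6 genes and the skeletal muscle column positive for all 6, and 0 of the 66 values passed the adjusted test, which 1 relation alone could not pass.

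Among themselves, the 6 genes had positive r in 15 of 15 pairs of such deviations, from 0.12 for *Rassf4* with *Mreg* to 0.84 for *Crip2* with *Prodh*. The share of positive pairs among all tested genes was not computed, so this count has no background. Without the 2 farthest libraries the r of *Rassf4* with *Mreg* was -0.007. *Crip2* with *Prodh* had an exact permutation p of 0.00694, the smallest possible, and an adjusted p of 0.104 (rho = 0.89; r = 0.77 without 2 libraries). *Cpne9* with *Fhl3* had r = 0.62 (exact permutation p = 0.0139, adjusted p = 0.104; rho = 0.70; r = 0.53) and *Rassf4* with *Crip2* r = 0.74 (exact permutation p = 0.0417, adjusted p = 0.208; rho = 0.70; r = 0.45). No pair passed after adjustment, where 1 pair alone could not go below 0.104. All genes of a library share its depth and its scaling.

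The tested genes whose log2 values ran most like each of the 6 over the 10 libraries are given as a description, since genotype and set enter these values. For *Cpne9* they were *AI606473* (r = 0.98), *Pck2*, a mitochondrial enzyme that makes phosphoenolpyruvate (0.97), and *Rwdd3* (0.97). For *Rassf4* they included *Usp6nl*, a Rab GTPase-activating protein (0.98), and *2410006H16Rik* (0.97). For *Crip2* they were *Rwdd3* (0.97), *Mpp3* (0.97) and *Ehd3* (0.97), so *Rwdd3* was shared with *Cpne9*. For *Fhl3* they were *Exosc10*, of the RNA exosome (0.98), *Rab20* (0.97) and *Mapk1ip1* (0.97). Those of *Mreg* were *Pank1*, which begins the making of coenzyme A (0.99), and 2 mitochondrial enzymes, *Glud1* (0.98) and *Idh2* (0.98). *Idh2* was at 4686 to 7453 normalized counts in WT and at 3037 to 17192 in the libraries labelled *Mgp*-KO. With group and set means removed its r with *Mreg* was 0.997, but *Idh2* was picked on these same libraries. The largest deviations of *Mreg* are those of the libraries labelled *Mgp*-KO 4 and 5, at 29.1 and 218 normalized counts, so this r rests mostly on them. Those of *Prodh* were *Fam134b* (0.96), *Cd164l2* (0.95) and *Mapk13* (0.95), of which *Fam134b* was at 303 to 481 in WT and 312 to 2919 in the libraries labelled *Mgp*-KO.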

How the data were processed

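RNA-seq of iBAT from 10 mice was used, 5 per group, as the sample labels give them. The authors mapped single reads of 50 bases with STAR 2.5.3a to mm10, used its GeneCounts mode, and deposited a signal, here called normalized counts, obtained by dividing counts by DESeq2 (1.38.3) size factors. The annotation release and strand setting are not given in the sources used here. In each library 100% of values were whole multiples (within 0.1 reads) of the value of 1 read, so reads were recovered. They came to 9253793 to 22252260 per library, and 3 reads, taken as the floor, are 2.15 to 5.19 normalized counts, which covers counting error only.

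The methods of the study speak of pairs of mice, 5 in all, without saying what joins a pair or that equal replicate numbers mark it, and no label names a batch. The 6 genes and all gene lists were chosen with earlier results of these data known. Differences were fitted with limma 3.58.1 in R 4.3.3 (lmFit, eBayes with trend) on log2(normalized count + 1). A mean of at least 10 over the libraries was required, which 13714 genes had; the fit had no block, with Benjamini-Hochberg adjustment and a threshold of 0.05. Such log2 fold changes understate changes of low genes. The library set difference and its interaction with genotype used the same fit with these terms. Correlations used 144 orders of libraries within genotype and set. Alternatives were pseudocounts of 0.5 and 10, no filter or a mean of at least 50, a replicate block, upper quartile and quantile scaling, edgeR 4.0.16 with TMM and DESeq2 1.42.0 on recovered reads, a set term, and libraries left out. Fits were tested on simulated data. Coordinates are from GENCODE on GRCm38, in which 25666 symbols were found; its exon unions gave lengths. Promoters are from RefSeq. Besides the 6 genes and *Mgp*, the rule named the 3 most alike genes of each, the 2 family genes with the smallest p per list and those past the threshold, list genes at 0 and neighbours; *Xist* was named after its values were seen. The values of 1 gene that this rule named are not reported here.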

Additional observations from a re-analysis of the deposited data

Results flagged for a closer look

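1 group stood out among the 12 groups of 5 libraries that were checked. *Prodh* was at 835 normalized counts in WT 4, far above the other 4 WT libraries, and the gap to the next of them was 0.864 of the range of the group, above the critical value of 0.71 for 5 samples. Chance flags about 1 in 20 groups.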

How the results depend on the processing

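Over 23 other settings the log2 fold change of the 6 genes was positive in 136 of 137 recomputed values, a sign that their choice on these libraries largely fixes. The exception was *Mreg* within replicates 4 and 5 alone, at -0.40, where *Prodh* was at 0.0095, against 2.78 for *Prodh* within replicates 1 to 3. A pseudocount of 10 lowered the log2 fold change of *Cpne9* from 2.82 to 2.01 and moved its set difference from -2.06 to -1.37. The number of genes called for genotype moved with the setting. Limma called 9 genes, and 29 with a pseudocount of 10, 1 with no filter, 15 with a mean of at least 50, 25 with equal upper quartiles and 34 after quantile normalization. EdgeR called 3 and DESeq2 371, limma 324 with a set term, 486 in replicates 1 to 3, 0 in replicates 4 and 5, and 267 without the libraries labelled *Mgp*-KO 4 and 5. With 1 library left out it ranged from 0 to 93. With the replicate number as a block, limma called 270 genes and 1 family gene. The methods speak of pairs of mice, but no label says that equal numbers mark them. The numbers were not taken to pair the libraries. The correlation of deviations from the group mean was 0.39 on average for equal numbers against 0.404 for other numbers of the same set. It was higher for equal numbers in replicates 1, 4 and 5 (0.527, 0.523 and 0.514 against 0.329, 0.408 and 0.305). It was lower in replicates 2 and 3 (0.0559 and 0.327 against 0.545 and 0.434). These 5 comparisons cannot settle whether the numbers mark pairs. Family genes called rose from 0 to 1 with DESeq2, to 2 with a set term, to 4 in replicates 1 to 3 and to 1 without the libraries labelled *Mgp*-KO 4 and 5.

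The set difference of *Mreg* passed with equal upper quartiles (-1.65) and with DESeq2 (-1.09), and ranged from -1.84 to -0.62 with 1 library left out. That of *Rassf4* was -0.83 and not past the threshold with edgeR, and ranged from -1.22 to -0.68. The interaction of *Prodh* was -2.88 and passed with DESeq2, and it ranged from -3.33 to -2.22 with 1 library left out, that of *Mreg* from -3.93 to -1.06. The lowest size of *Mreg* came without the library labelled *Mgp*-KO 4. Of 264 recomputed correlations with marker lists, 48 moved. A block cannot be fitted to the set difference, since each number lies in 1 set. The cause of these shifts was not tested. Depth limits *Cpne9* most, which had 1 to 24 reads per WT library, and 5 libraries per group limit every value.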
